A study of Salmo salar with 54 samples.

Results

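Among 18901 genes measured in primary hepatocytes of Atlantic salmon, 137 had a mean log2 change of at least 2 at 250 µM arsenosugar and stayed level under arsenite at 1 and 3 µM. They were chosen on the measured values: that change between 250 µM arsenosugar and its control, a log2 change smaller than 0.3 in size at both arsenite concentrations, and a mean of at least 50 normalised reads at 250 µM. A normalised read is a gene's read count divided by 1 size factor per library, and changes are differences of mean log2(value + 1). Of the 137 genes, 35 carry a gene symbol in the RefSeq table of the assembly Ssal_v3.1 and 102 a locus name only, that is 25.5% with a symbol against 32.9% of all genes. A pair of genes that the rule leaves out by name, ryr2a and pbxip1b, is not included. Because the rule used the arsenosugar control, 250 µM arsenosugar, the arsenite control, 1 µM and 3 µM arsenite, the changes of the 137 genes at 250 µM arsenosugar and at 1 and 3 µM arsenite are given as a description, without a test.

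The cells came from the livers of 6 male salmon, were grown on laminin-coated polystyrene scaffolds and were exposed for 48 h. Hepatocytes of each fish were divided over 9 groups: arsenosugar glycerol (AsSug) control, 5, 10, 50 and 250 µM on plates of its own, and arsenite (AsIII) control, 0.1, 1 and 3 µM on plates of its own. Each group holds 6 libraries, 1 per fish, 54 in all. The labels name no genetic change and no further agent, and no source used here tells whether controls received the solvent of the stock.

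Arsenite is the inorganic trivalent form of arsenic, which binds protein thiols and sets off the oxidative stress and heat shock programmes in many cell types. Arsenosugars are organic compounds in which arsenic is bound to a ribose unit; they are the main arsenic species of seaweeds and reach fish through feed. The liver takes up and transforms both. Whether the genes described here share a pathway was not tested. By their symbols, the 35 that carry one include genes of a linker histone, an enzyme that acts on ADP-ribose and DNA repair factors. Others encode RNA-processing factors, adaptors of ubiquitin ligases, centrosome proteins and membrane proteins.

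In all, 1043 genes had a log2 change of at least 2 and a mean of at least 50 at 250 µM, and 13.1% of these were level under both arsenite concentrations. Of the 13763 genes at that level, 19.6% were level under arsenite. Seen from the other side, 5.07% of the 2701 genes level under arsenite reached the threshold at 250 µM, against 7.58% of all genes at that level. The other 904 genes past the threshold had a median log2 change of 2.55, close to the 2.42 of the 137, and at 3 µM AsIII 535 of them were higher by 0.3 or more and 253 lower by 0.3 or more. The threshold fell within a continuous range of values: the 4 genes just inside it were LOC106600568 (2.02), cep41 (2.01), LOC106561663 (2.01) and LOC106588401 (2.00), and the 4 just outside were LOC106565058 (2.00), LOC106608383 (1.99), LOC106604853 (1.99) and LOC106587576 (1.97).

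**Figure D1:**
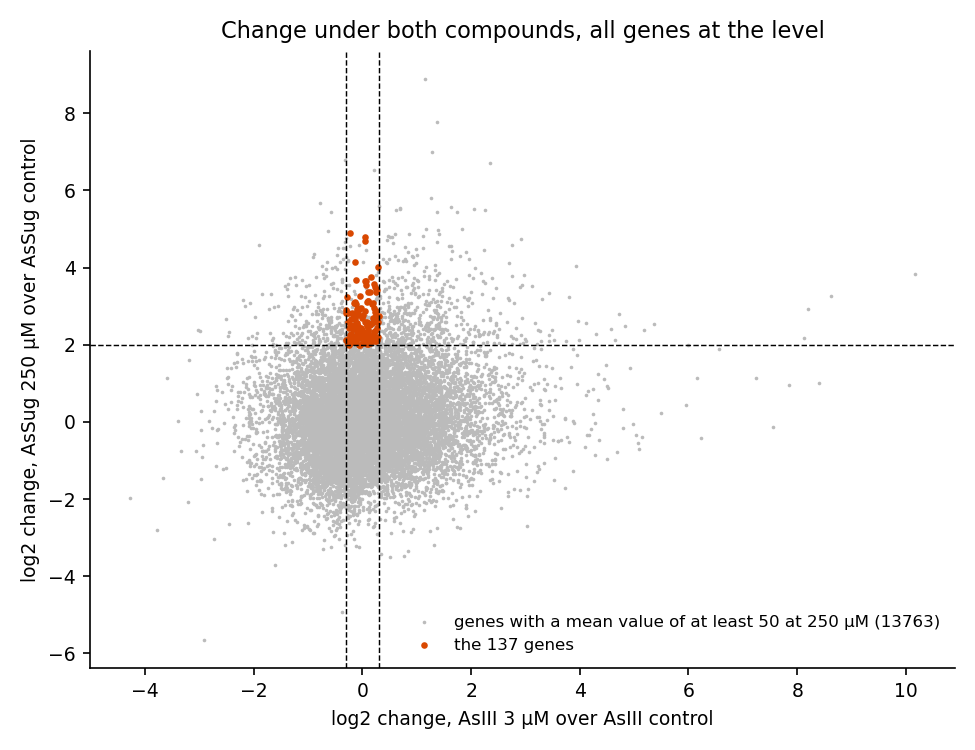
Log2 change at 250 µM AsSug over its control (vertical axis) against the log2 change at 3 µM AsIII over its control (horizontal axis), 1 point per gene with a mean of at least 50 normalised reads at 250 µM. The 137 genes (orange) lie in the band between the dashed lines at -0.3 and 0.3 and above the dashed line at 2, and no gap separates them from the 13763 genes shown in grey and orange together.

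Together the 137 genes took 1.73% ± 0.467 of the reads at 250 µM AsSug (SD, n = 6), between 0.981 and 2.23%, against 0.226% ± 0.0105 in the AsSug control, between 0.213 and 0.239%. The 2 groups did not overlap. In the other 7 groups the mean share ran from 0.195% at 3 µM AsIII to 0.228% at 5 µM AsSug. The libraries at 3 µM AsIII, at 0.188 to 0.207%, all lay below those of the AsIII control, at 0.214 to 0.233%. The sum of the mean normalised reads was 151526 at 250 µM against 24747 in the control, a 6.12-fold difference, or 6.58-fold without LOC100194728, which alone held 25.1% of the sum at 250 µM and 30.3% in the control.

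**Figure D2:**
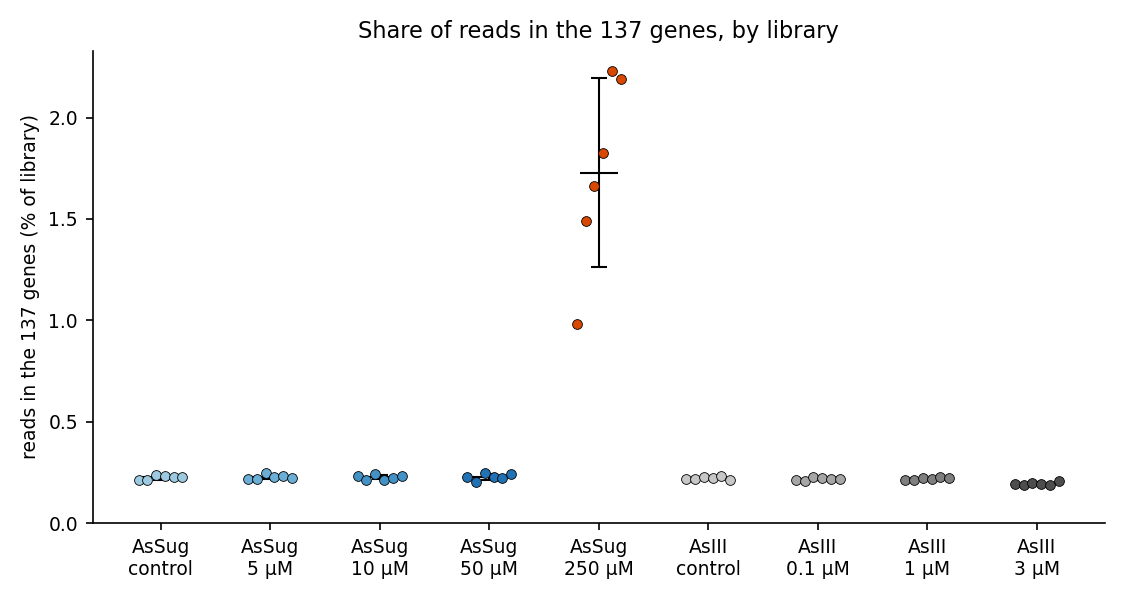
Share of each library's reads, in percent, that fell on the 137 genes, for the 9 groups in order of concentration within each compound. Points are libraries (1 per fish), the horizontal mark is the mean and the bar the SD (n = 6). The 6 libraries at 250 µM AsSug lie between 0.981 and 2.23%, and the group means of the other 8 groups lie between 0.195 and 0.228%.

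The 250 µM libraries stood apart in other ways. Their depth was 0.898 to 5.38 M reads against 8.79 to 24.0 M in the other 48 libraries, genes without a read numbered 207 to 921 in each, against 39 or fewer, their library names form a numbered series of their own in the file header, and the labels set their RNA integrity apart without a value in the sources used here. Concentration and library series cannot be told apart. Each of the 137 genes had reads in every library, with a median of 1095 reads summed over the 6 libraries at 250 µM and 405 over the 6 controls. The rule's level of at least 50 at 250 µM favours this. In fish 2 at 250 µM the median was 41 reads, and LOC106579469 and LOC106611969 had 4 each. Of the 11 hepatocyte markers measured, 3 were higher at 250 µM and 6 lower, where over all genes 26.7% were called higher and 36.5% lower in limma. With library totals 5 markers were higher and 5 lower, where 6453 of 18801 genes were called higher and 4909 lower. The summed level of the 11 markers was 175454 to 382467 normalised reads at 250 µM against 491287 to 646375 in the control. The genes tfa, fgg and apoa1 weighed most in that sum, with control means of 278221, 158473 and 60695, and each was called lower. Gene by gene, the median log2 change of the 11 was -0.46, or -0.16 with library totals. All 11 had reads in every 250 µM library. Among the 6 called lower was the iron carrier tfa, at 69509 ± 16101 normalised reads against 278221 ± 21855. Another was the gluconeogenic enzyme pck1, at 31.6 ± 19.1 against 1034 ± 286. The 3 called higher, with their log2 changes, were rbp4 (0.62 ± 0.17), ttr (0.62 ± 0.17) and fga (0.53 ± 0.19). The call of fga was lost without fish 3, 5 or 6. The lower call of apoba was lost with library totals, in edgeR and without fish 3. tat and hp were called higher with library totals only.

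Markers of other cell types found by symbol were 12 genes. Highest in normalised reads were anxa4, at 2180 on average at 250 µM against 2913 in the control, and cd68, at 1039 against 2852. The summed level of 3 endothelial markers was 264 to 331 normalised reads at 250 µM against 198 to 244 in the control, with esamb higher, kdr lower and at 0 in 2 of the 250 µM libraries (not called without fish 4, and below the filter, so not tested, without any one of the others), and stab1 not called. The 3 stellate and fibroblast markers summed to 147 to 242 against 295 to 693, with timp2 and fn1a lower and acta2 not called. The 3 macrophage and granulocyte markers summed to 651 to 1607 against 2537 to 3083, with cd68 and lyz lower, lyz at 0 in 1 library (call lost without fish 3 or 4 and without fish as a term), and mpeg1.1 not called. The red cell marker rhag was higher, at 509 to 729 against 252 to 365, and of 2 cholangiocyte markers, which summed to 2112 to 2898 against 2561 to 3271, jag1b was higher and anxa4 lower (call lost without fish 2, with library totals and in edgeR). No symbol in the table matched a listed marker of lymphocytes, muscle or neurons. None of the 35 genes with a symbol is on a marker list, and the 102 with a locus name could not be matched. The part of depth, RNA integrity and cell types in the changes at 250 µM was not tested, and in bulk libraries fewer cells of a type and less RNA per cell cannot be told apart.

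The 137 genes had a median log2 change of 2.42 at 250 µM, with a range of 2.00 to 4.90, against -0.20 over all genes. The change was at least 3 in 27 genes and at least 4 in 5. In the fit of 250 µM against the control (limma, Benjamini-Hochberg, adjusted p below 0.05), 63.2% of 18756 genes were called, 5000 higher and 6846 lower. Scaling by library totals gave 6453 higher and 4909 lower calls; the all-gene median was then 0.09 in place of -0.20, and the 137 genes had a median of 2.73. The rule used this contrast, so calls of the 137 genes in it are not counted. By the choice of genes, 136 were higher in all 6 fish (23.2% of all genes), and in 134 every 250 µM library lay above every control library (16.4% of all genes). The choice also favours the next count: in 127 genes every 250 µM library lay above all 48 other libraries (9.09% of all genes). Of the 48, the rule did not use 24, but it did use the 250 µM libraries, so the count is a description. The 3 genes whose 250 µM and control libraries overlapped were LOC106574762, LOC106582444 and klf11a, and klf11a was also the gene not higher in every fish, with -0.17 in fish 3.

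The largest change was in LOC100286579, for which the reference table lists the older symbol hint3, the name of a histidine triad nucleotide-binding protein. It had a lowest, median and highest value of 178, 460 and 711 normalised reads at 250 µM, against 6.11, 14.2 and 17.7 in the control, a log2 change of 4.90 ± 0.25 (SE). The groups lay far apart, and in the 48 other libraries the gene stayed at or below 24.2. LOC106606196 had 5716, 7129 and 16577 normalised reads at 250 µM against 217, 292 and 849 in the control (4.69 ± 0.17). LOC106579625 had 767, 1890 and 2412 against 86.7, 93.3 and 117 (4.16 ± 0.19). Both had separate groups in which 1 library stood off from the others, fish 6 at 849 in the control of LOC106606196 and fish 1 at 767 at 250 µM in LOC106579625.

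LOC106604206 ranked next to the top by its mean change of 4.79 ± 0.71, but its fish differed widely. Fish 2 had 6467 normalised reads at 250 µM, and the other 5 fish lay between 54.2 and 253, against 0.904 to 47.2 in the control. Without fish 2 the change was 3.77. The change by fish ran from 1.77 to 9.86, and the SD of its log2 values at 250 µM, 2.42, was the widest of the 137 genes.

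Among genes with a symbol, macrod2 changed most. In mammals its product removes ADP-ribose from proteins. It had 803, 1382 and 1770 normalised reads (lowest, median, highest) at 250 µM against 65.1, 84.1 and 88.9 in the control, a log2 change of 4.01 ± 0.18. The groups were separate in every fish. The level stayed between 73.4 ± 4.64 and 84.1 ± 11.5 on average at 5, 10 and 50 µM AsSug (SD, n = 6) and between 72.3 ± 10.1 and 94.3 ± 9.04 over the 3 AsIII concentrations. mul2, to which no role is given here, had 727, 1155 and 1707 at 250 µM against 63.8, 79.7 and 98.6 in the control (3.77 ± 0.20), and si:dkeyp-121d4.3 had 226, 478 and 849 against 23, 36.2 and 46.2 (3.67 ± 0.23). Neither gene's groups overlapped. Of the other genes among the 12 largest changes, LOC106602533 changed by 3.68 ± 0.16, LOC106579667 by 3.66 ± 0.23, LOC106613191 by 3.57 ± 0.24, LOC106607325 by 3.54 ± 0.16 and LOC106607202 by 3.50 ± 0.24.

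**Figure D3:**
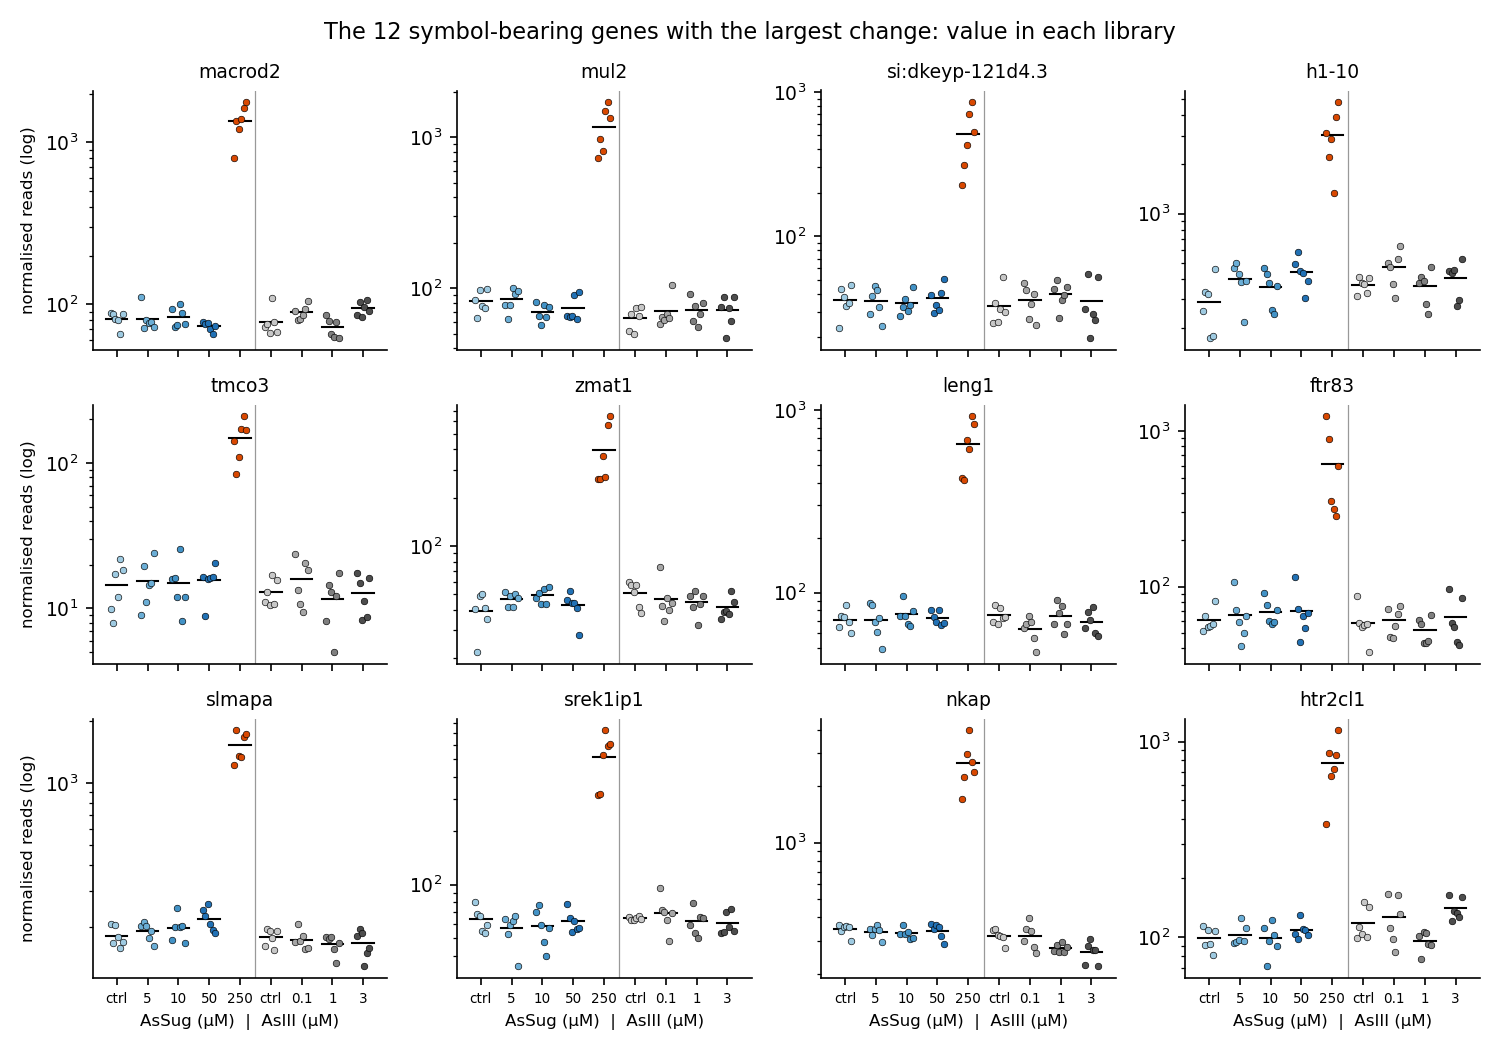
Normalised reads (log axis) of the 12 symbol-bearing genes with the largest change, 1 panel per gene, in every library of the 9 groups: AsSug control, 5, 10, 50 and 250 µM left of the grey line, AsIII control, 0.1, 1 and 3 µM right of it. Points are libraries (1 per fish) and bars are group means. In each panel the 6 libraries at 250 µM AsSug lie above the other 48, as in macrod2, where the lowest is 803 and the highest of the others is 111.

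The 35 genes with a symbol were sorted by their known roles after the symbols had been seen, so the groups serve to order the description only. In chromatin and transcription stood 5 genes. h1-10, a linker histone that binds DNA between nucleosomes, had 1334, 2995 and 4787 normalised reads at 250 µM against 175, 289 and 458 in the control (3.37 ± 0.19). ncoa1, a coactivator of nuclear receptors, averaged 557 ± 217 at 250 µM against 79.3 ± 8.32 (SD; 2.69 ± 0.21). These groups were apart in both genes. mphosph8, which in mammals binds methylated histone H3 as part of a silencing complex, changed by 2.13 ± 0.19, and brd7, a bromodomain subunit of a chromatin remodeller, by 2.11 ± 0.15. klf11a, a zinc finger transcription factor, had the lowest level, 51.8 ± 22.7 at 250 µM against 10.5 ± 5.19 in the control, with 11.1 in fish 3 at 250 µM.

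RNA processing and binding also held 5 genes, with changes from 2.18 to 2.93. srek1ip1, whose product binds a splicing factor, had 317, 561 and 725 normalised reads at 250 µM against 53.6, 63.1 and 80.1 in the control (2.93 ± 0.22). nkap, a nuclear protein that binds RNA and represses transcription, had 1709, 2541 and 3967 against 299, 357 and 363 (2.90 ± 0.16). No library of the 250 µM group came near the control range in either. The kinase of splicing factors srpk3 changed by 2.70 ± 0.22, the poly(A)-binding pabpc1l by 2.22 ± 0.19 and nrde2, which in mammals restrains the nuclear RNA exosome, by 2.18 ± 0.22.

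Beside macrod2 stood a pair of DNA repair genes: nhej1, a factor that aligns DNA ends for joining, averaged 188 ± 50.7 at 250 µM against 28.6 ± 8.43 in the control (2.68 ± 0.24), and rad18, a ubiquitin ligase of damage tolerance, 72.6 ± 43.6 against 15.1 ± 5.06 (2.05 ± 0.37). The 4 genes of ubiquitin ligase families were ftr83, a member of the TRIM family expanded in fish (3.11 ± 0.26), klhl30 of the kelch family (2.58 ± 0.17), the substrate-binding F-box protein fbxo2 (2.21 ± 0.20) and the cullin adaptor spop (2.17 ± 0.25). ftr83 was unusual in its order over fish, with 1245 in fish 1 and 286 in fish 5 at 250 µM, against a control range of 51.6 to 80.3.

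Centrosome and cytoskeleton genes were slmapa (3.05 ± 0.16), which encodes a tail-anchored membrane protein, alms1 (2.83 ± 0.17), which encodes a protein of the centrosome and the base of cilia, mical3a (2.09 ± 0.19), a monooxygenase of the actin-modifying family, and the centrosomal cep41 (2.01 ± 0.23). slmapa was among the most even over fish, with 1229, 1512 and 1798 normalised reads at 250 µM against 160, 175 and 207 in the control. Membrane proteins were tmco3 (3.28 ± 0.26), the serotonin receptor family gene htr2cl1 (2.88 ± 0.21), m4a8a of the four-span MS4A family (2.41 ± 0.15) and lrrc52, an auxiliary subunit of potassium channels in mammals (2.24 ± 0.18). Enzymes were allc, which degrades allantoate in purine breakdown (2.43 ± 0.17), dct of melanin synthesis (2.33 ± 0.27), the sphingomyelinase nsma3 (2.27 ± 0.20), the mitochondrial leucyl-tRNA synthetase lars2 (2.15 ± 0.21) and the fatty aldehyde dehydrogenase aldh3a2 (2.08 ± 0.20). zmat1 (3.23 ± 0.24), leng1 (3.11 ± 0.20) and zc3hf (2.07 ± 0.14) are listed without a role. Reads of duplicated or overlapping genes may have been split or shared in the authors' counting, and the sources used here do not give its settings.

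Near namesakes of these genes, picked after the symbols had been seen, moved differently from one another at 250 µM. macrod1 rose by 0.86 ± 0.15 (limma adjusted p = 0.000109), mical2a by 1.09 ± 0.29 (adjusted p = 0.00394) and ftr82 by 0.45 ± 0.17 (adjusted p = 0.033, a call lost without fish 1, 2 or 6 and without fish as a term). aldh3a2b fell to 827 ± 104 against 1999 ± 140 (-1.28 ± 0.13, adjusted p = 7.4e-07), the opposite direction to aldh3a2. mul3 was at 168 ± 44 against 175 ± 23.1 (-0.08 ± 0.18, adjusted p = 0.707, turning to 0.22 with library totals, 0.02 with TMM factors or without fish 1, and 0.01 in edgeR).

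Normalised reads are not divided by gene length, so they do not rank genes by expression. The genes with the most reads at 250 µM were LOC100194728, with 25942, 36152 and 53301 normalised reads against 6687, 7661 and 7957 in the control (2.29 ± 0.18), LOC106606196, LOC100194705 (6953 ± 1723 against 1346 ± 137, 2.34 ± 0.15), LOC106588401 (5193 ± 1716 against 1307 ± 493, 2.00 ± 0.13), LOC106560617 (3219 ± 2229 against 311 ± 35.3, 3.13 ± 0.24) and h1-10. At 250 µM 35 genes averaged at least 1000 normalised reads, 89 between 100 and 1000, and 13 fewer than 100. The median level was 443 at 250 µM against 62.2 in the control, while over all genes it was 112 against 110. In the control 95 of the 137 genes lay under that all-gene median. The rule's limits on level and change favour a high level at 250 µM and a low one in the control. The other 904 genes past the threshold had median levels of 327 at 250 µM and 42.7 in the control.

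The size of the change differed between fish. Its median over the 137 genes was 2.07 in fish 1, 2.46 in fish 2, 2.43 in fish 3, 2.74 in fish 4, 2.85 in fish 5 and 2.69 in fish 6, while the median of all genes stayed between -0.19 and -0.13. The change from a fish's own control was smallest in fish 1 for 56 genes and largest in fish 5 for 39. In depth, fish 1 had the most reads of the group and fish 2 the fewest, 5.38 and 0.898 M. The part of depth in the differences between fish was not tested. The median SD of log2 values was 0.56 at 250 µM against 0.25 in the control for the 137 genes, and 0.54 against 0.22 for all genes. The most even genes at 250 µM were lrrc52, with 1095, 1305 and 1526 normalised reads (SD of log2 values 0.16), slmapa (0.23) and LOC106572979 (0.26). The least even were LOC106604206 (2.42), LOC106613191, with 232 in fish 1 and 2721 in fish 6 (1.24), and LOC106568224 (1.09). LOC106568224 had 26.2 in fish 4, from 9 reads, and 217 in fish 2, from 23 reads.

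**Figure D4:**
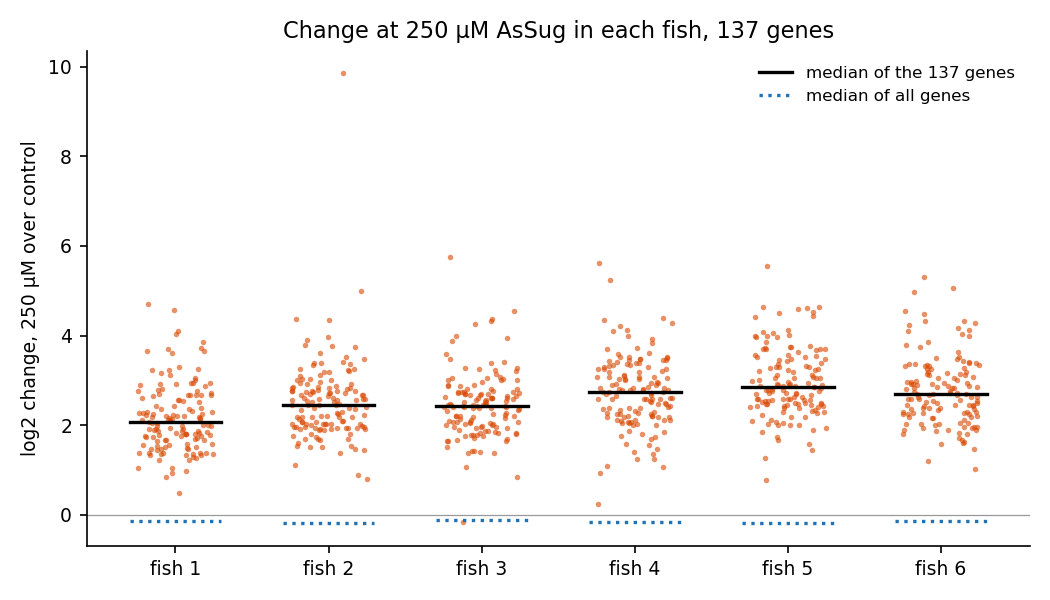
Log2 change at 250 µM AsSug over the control within each fish (vertical axis), 1 point per gene for the 137 genes, with their median (black line) and the median of all genes (dotted blue line). Medians run from 2.07 in fish 1 to 2.85 in fish 5, and the point at 9.86 in fish 2 is LOC106604206.

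The comparison of 50 with 5 µM AsSug, groups that the rule did not use, asks whether the genes moved over the lower concentrations. None did at an adjusted p below 0.05. In limma 0 of the 137 genes were called, beside 0 of 18818 genes in all (0.0%), and 7 had an unadjusted p below 0.05, or 5.11% against 5.51% of all genes, 3 of them higher and 4 lower at 50 µM. The fit also held the AsSug control libraries, which the rule used and which entered its filter, fish terms and spread. Fitted with only the groups compared, 7 of 135 genes had an unadjusted p below 0.05 (5.19%, against 6.58% of all genes), 5 of them higher. The median difference was 0.00 for the 137 genes and -0.01 for all genes, and their differences ran from -0.79 to 0.47. edgeR called 1 gene and DESeq2 3 over all genes, and 0 of the 137 each. The gene with the smallest unadjusted p was slmapa, whose lowest and highest values were 189 and 259 normalised reads at 50 µM against 162 and 213 at 5 µM. It was higher in 6 of 6 fish, the groups overlapped, and the difference of 0.19 ± 0.07 did not pass (adjusted p = 0.837). Between 10 and 5 µM limma likewise called 0 of the 137 genes and 0 of all (0.0%), with 7 of the 137 (5.11%, against 5.7% of all genes) at an unadjusted p below 0.05. edgeR and DESeq2 also called 0 genes for this pair.

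**Figure D5:**
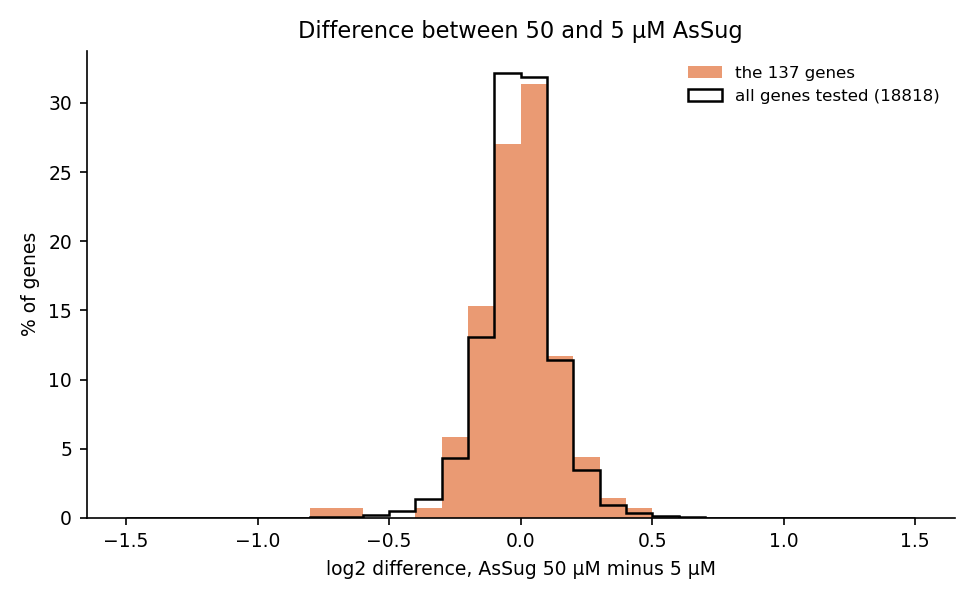
Distribution of the log2 difference between 50 and 5 µM AsSug (horizontal axis) as a percentage of genes (vertical axis), for the 137 genes (filled) and for all 18818 genes tested (outline). Both distributions centre on 0, and the 137 genes range from -0.79 to 0.47.

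Against the AsSug control, whose libraries the rule also used, the lower concentrations gave 0 calls among the 137 genes at 5 µM (0.106% of all genes), 0 at 10 µM (0.0159%) and 2 at 50 µM (0.563%), the 2 being 1.46% of the 137. At an unadjusted p below 0.05 the counts were 9 of the 137 at 5 µM (6.57%, against 7.03% of all genes), 11 at 10 µM (8.03%, against 5.91%) and 14 at 50 µM (10.2%, against 10.8%). In that order of concentrations, 7, 3 and 8 of them were higher and 2, 8 and 6 lower. These comparisons share the control libraries with one another and with the choice of the genes. Both genes called at 50 µM were higher, against 0.372% of all genes called higher, and they are named because they were called. h1-10 averaged 287 ± 108 normalised reads in the control, 397 ± 99.4 at 5 µM, 356 ± 89.7 at 10 µM, 443 ± 94.6 at 50 µM and 3040 ± 1215 at 250 µM (SD, n = 6). At 50 µM it was higher in 5 of 6 fish, with a log2 change of 0.68 ± 0.12 (limma adjusted p = 0.00425), and its values of 305 to 587 overlapped the 175 to 458 of the control. The call was lost without fish 2 (adjusted p = 0.0523) and without fish as a term (0.666, against 1.5e-05 to 0.0346 in the other settings), and the AsIII control, at 316 to 413, lay within the 50 µM range.

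m4a8a averaged 282 ± 27.4 normalised reads in the control, 323 ± 18.6 at 5 µM, 306 ± 44.3 at 10 µM, 357 ± 28.6 at 50 µM and 1521 ± 269 at 250 µM. At 50 µM it was higher in 5 of 6 fish, by 0.34 ± 0.08 (limma adjusted p = 0.0442), and 320 to 389 overlapped 245 to 324 in the control. Its call was lost without any one of fish 1 to 5, with library totals, with only the groups compared and without fish as a term (adjusted p = 0.0757 to 0.409 in these settings, against 0.0121 to 0.0444 in the others). Without fish 6, h1-10 was also called at 5 and 10 µM, and LOC106578255 and lrrc52 were called at 50 µM beside h1-10 and m4a8a. Over the 137 genes the mean at 50 µM was 0.602 to 1.57 times that of the control, with a median of 1.01, and at 250 µM it was 3.43 to 73.7 times, with a median of 5.65.

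Under AsIII at 0.1 µM, a group the rule did not use, 0 of 136 genes tested were called in limma (0.0106% of all genes), with 13 at an unadjusted p below 0.05, or 9.56% against 7.79% of all genes. The fit also held the AsIII control, 1 and 3 µM libraries, which the rule used. Fitted with only the groups compared, 8 of the 136 had an unadjusted p below 0.05, or 5.88% against 3.23% of all genes. edgeR and DESeq2 also called 0 of the 136 genes. Their median change was 0.03, against 0.00 over all genes. The largest differences were within 0.79 log2 units of the control. In unexposed cells the AsSug plates differed from the AsIII plates by a median of 0.03 log2 units over the 137 genes. The difference was less than 1 in each, with 0.86 in LOC106604206 the widest. Over all genes the median was -0.01. Taken without sign, the median difference was 0.11 over the 137 genes and 0.09 over all genes. The rule used both controls. The AsIII libraries also form a numbered series of their own, so plates and library series cannot be told apart.

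None of the 35 genes with a symbol is on a stress or structural list. The rule leaves out genes that change by 0.3 or more at 1 or 3 µM AsIII, so this absence is partly set by the choice. For example, hsp30 changed by 2.17 at 250 µM AsSug but by 8.13 at 3 µM AsIII. The 102 with a locus name could not be matched, and these lists were drawn up with earlier results known. The counts that follow stand beside 26.7% of all genes called higher and 36.5% called lower. Of 14 measured NRF2 and oxidative stress genes, 1 was higher and 7 lower at 250 µM, with a median log2 change of -0.44. txnb, a thioredoxin, rose (1.09 ± 0.24, limma adjusted p = 0.00114) and gclc, which starts glutathione synthesis, fell (-1.92 ± 0.16, adjusted p = 7.7e-08). Heat shock genes were split, with 4 of 11 higher and 5 lower (median -0.33). The HSP90 gene hs90a was higher, at 6584 ± 3420 normalised reads against 1657 ± 458 (1.89 ± 0.20, limma adjusted p = 7.9e-07). Another HSP90 gene, hsp90ab1, was lower, at 6983 ± 1525 against 18344 ± 994 (-1.42 ± 0.16, adjusted p = 2.4e-06). hspa8 was also lower (-1.12 ± 0.18, adjusted p = 7.8e-05). ER stress and ATF4 genes counted 1 higher and 7 lower of 13 tested (median -0.70), and DNA damage and apoptosis genes 2 higher and 2 lower of 11 (median -0.25). Among the latter, xpc was not called (0.83 ± 0.36, limma adjusted p = 0.0557). It was called higher with a pseudocount of 5, library totals, TMM factors, edgeR and DESeq2, without fish as a term and without fish 2. ccng2 was called lower without fish 1, and rrm2b without fish 5. The lower calls of dnajb1a and dnaja were lost with library totals, TMM factors and edgeR, without fish as a term and without fish 1. That of dnajb1a was also lost in DESeq2 and without fish 4 or 5. The higher call of hsp30 (322 ± 622 against 108 ± 211) was lost without fish as a term (limma adjusted p = 0.116). The lower call of nfe2l2a was lost with library totals, TMM factors, edgeR and DESeq2, and without fish 3, 4, 5 or 6. With library totals, 6453 of 18801 genes were called higher and 4909 lower. The NRF2 median was then -0.15 (1 higher, 5 lower) and that of heat shock -0.05 (4 and 3). That of ER stress and ATF4 was -0.43 (3 and 6 of 14), and that of DNA damage turned to 0.06 (3 and 2).

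Of 11 chromatin and RNA regulators, also listed with earlier results known, 10 were called higher and 1 lower, with a median of 1.68. Without fish 5 or fish 6, 9 were called higher, the call of arid1b being lost. chd3, a remodeller of the NuRD complex, had 664 ± 274 normalised reads against 33.1 ± 6.45 (4.19 ± 0.24, limma adjusted p = 1.7e-09), and chd7, another chromodomain helicase, 1649 ± 643 against 110 ± 15.7 (3.81 ± 0.19, adjusted p = 4.5e-10). The helicase ddx17 rose by 2.41 ± 0.21 and the DNA demethylase tet3 by 2.31 ± 0.24 (adjusted p = 1.4e-07 and 8.6e-07). The gene called lower was chd8 (-0.55 ± 0.21, adjusted p = 0.035), whose call was lost with library totals, TMM factors, edgeR and DESeq2, without fish as a term and without fish 1, 3 or 6. All 4 risers passed the change threshold but not the arsenite limits: at 1 µM AsIII chd3 was at -1.03, chd7 at 0.71, ddx17 at -0.64 and tet3 at 0.61. Of 4 genes of extracellular matrix and giant structural proteins, 3 were higher and 0 lower (median 1.04; the call of hspg2 was lost without fish 2, 4 or 5), and neither of 2 calcium handling genes was called (median 0.00).

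In the genome order of Ssal_v3.1, the 130 measured next neighbours of the 137 genes had a median log2 change of -0.30 at 250 µM, and 5.38% of them reached 2, against 5.70% of the neighbours of all genes. A change of 1 or more was seen in 20.8% against 16.7%. A single pair of neighbours, LOC106601332 (2.42) and LOC106601331 (2.06), was made up of 2 of the 137 genes.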

How the data were processed

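RNA of 54 hepatocyte libraries was sequenced. The deposited table holds a read signal per gene, which the authors made by dividing read counts by 1 size factor per library; HISAT2, featureCounts (Subread) and DESeq2 1.40.2 are named, per the submitters' processing notes. The sources used here do not give build, annotation or strand setting. Dividing by each column's smallest step returned whole reads within 0.1 reads for at least 99.9947% of values in each library (largest deviation 0.102 reads), and these gave the depth and the count tests.

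The genes and the lists were chosen with earlier results of these data known. Named genes are the 12 largest changes, the 12 largest with a symbol, the 6 with most reads at 250 µM, the 4 on either side of the threshold and the 3 with the widest and narrowest spread. Tests used limma 3.58.1 (R 4.3.3) on log2(value + 1), with a mean trend, fish as a term, a filter of 10 normalised reads in 6 libraries, and two-sided p-values adjusted by Benjamini-Hochberg over all genes and called below 0.05. AsSug control, 5, 10 and 50 µM shared a fit, as did the AsIII groups, and 250 µM was fitted with its control. Same-fish libraries come from 1 animal (median r of deviations 0.364 in AsSug up to 50 µM and 0.0963 at 250 µM, against -0.0744 and -0.0296 between fish). Values after ± are SDs over 6 fish for levels and SEs of the fit for log2 changes. Reads without molecular identifiers are not independent molecules. Alternatives were pseudocounts of 0.5 and 5, no filter, library totals, TMM factors, no fish term, fits of only the groups compared, edgeR 4.0.16, DESeq2 1.42.0, a level of 100 and each fish left out. A further near namesake is not reported here.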

Additional observations from a re-analysis of the deposited data

Results flagged for a closer look

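In 73 sets of 6 libraries, a Dixon test on values without logs looked for a library far from the other 5. The sets were the share of reads of the 137 genes in the 9 groups, and the 250 µM and control values of 32 named genes. Such a library was found in 6 sets. Genes were named in part for their spread or change at 250 µM, so the test's usual rate of about 1 in 20 does not apply. At 250 µM AsSug, LOC106604206 had 6467 normalised reads in fish 2, with 253 the nearest, LOC106579625 had 767 in fish 1, with 1807 the nearest, and LOC106560617 had 7444 in fish 6, with 3466 the nearest. In the AsSug control, LOC106606196 had 849 in fish 6, with 306 the nearest, LOC106607202 had 60.2 in fish 6, with 30.9 the nearest, and macrod2 had 65.1 in fish 5, with 80.2 the nearest. Without fish 2 the log2 change of LOC106604206 at 250 µM was 3.77, against 4.79 with all fish.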

How the results depend on the processing

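The rule gave 137 genes. With pseudocounts of 0.5 and 5 it gave 137 and 134 genes, of which 135 and 117 were among the 137, with TMM factors 157 (132 shared), with library totals 198 (104 shared, 75.9% of the 137 and 52.5% of the 198), and at a level of 100 it gave 124, all shared. With library totals all 137 kept a log2 change of at least 2 at 250 µM, and 104 met the arsenite and level limits. With TMM factors these counts were 137 and 132. Without 1 fish the rule gave 125 to 148 genes. Each of these lists held at least 75.2% of the 137. The change at 250 µM kept its direction for all 31 genes named by rule in every setting run. They were chosen for a change of at least 2 there, so this follows from the choice. Of these genes only LOC106588401 moved by more than the SD between replicates, to 2.31 with library totals and 2.10 with TMM factors.

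Between 50 and 5 µM AsSug, 0 genes were called in most settings, 1 with only the groups compared, 1 with edgeR, 3 with DESeq2 and 0 without any 1 fish, and 0 of the 137 throughout. At 5 µM against control, 20 genes were called, 34 with DESeq2, 0 with no replicate block, and 7 to 38 without 1 fish, with 0 to 1 of the 137. At 10 µM, 3 were called, 11 with library totals, 14 with DESeq2, 0 with no replicate block, and 2 to 15 without 1 fish, with 0 to 1 of the 137. At 50 µM, 106 were called, 34 with only the groups compared, 0 with no replicate block, and 31 to 178 without 1 fish. Of the 137, 2 were called there, 1 with library totals, 1 with only the groups compared, 0 with no replicate block, and 0 to 4 without 1 fish. At 0.1 µM AsIII, 2 genes were called, 13 with DESeq2, 1 with no replicate block, 0 with a pseudocount of 5, library totals, TMM factors, only the groups compared or edgeR, and 0 to 8 without 1 fish. The cause of these differences was not tested.

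At 250 µM the shallow libraries limit low genes: with size factors from 0.106 to 0.59, the added 1 stands for less than 1 read, and the gene of the 137 with the fewest reads had 123 over the 6 libraries. The concentration and its separate library series cannot be told apart, and no RNA integrity value was used here.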
